A study of Homo sapiens with 6 samples.

Results

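The genes described here belong mostly to families known for contacts between cells, and they were 52 of the 14812 genes measured. They were chosen by symbol from the annotation of the array: numbered cadherins (*CDH*), protocadherins (*PCDH*), claudins (*CLDN*), desmogleins (*DSG*), desmocollins (*DSC*), plakophilins (*PKP*) and connexins (*GJA*, *GJB* and *GJC*), together with *OCLN*, *TJP1*, *JUP* and *ST14*. Where a gene had more than 1 probe set, the one with the highest mean signal was used, and the choice used no difference between groups. UM-Cis is a line derived from the oral squamous carcinoma cell line UMSCC1 by exposure to cisplatin that was raised stepwise to 5 µg/mL over about 12 months, starting at 1 µg/mL. The compared groups were 3 arrays of UM-Cis and 3 arrays of parental UMSCC1, both grown in the same medium and both without cisplatin when RNA was taken. The methods also describe parental cells kept alongside the selection in a vehicle of DMSO in PBS, and do not say whether the UMSCC1 arrays came from these. UM-Cis is 1 derived line, so that selection by cisplatin and the derivation of this particular line cannot be told apart. The arrays measured total RNA of each culture, and in such bulk samples fewer cells expressing a gene and less RNA per cell cannot be told apart. No source states that the 3 samples of a line were separate cultures, so that the p-values reflect only how far these samples scattered, and this scatter may be technical.

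In adherens junctions and desmosomes, cadherins of neighbouring cells bind each other, and plaque proteins inside the cell tie them to actin or to keratin filaments. In tight junctions, claudins and occludin seal the space between cells, and in gap junctions connexins form channels from cell to cell. Squamous epithelium, the tissue from which these carcinoma cells derive, is known for its many desmosomes.

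Coverage of the families was uneven. The RefSeq gene table held 90 protein-coding symbols of the chosen forms, of which 52 were named in the annotation used here (called measured below) and 38 were not analysed here. That annotation named 15835 of 44629 probe sets, so that a gene it does not name may still have probe sets on the array. All 24 claudins, all 11 numbered protocadherins, all 7 desmosomal cadherins, all 4 plakophilins and all 4 single genes were named. Of 23 numbered cadherins, only *CDH23* and *CDH26* were named, and none of the 17 connexins was. The following therefore describes tight junctions, desmosomes and protocadherins, and gives no level of a gap junction channel or of a classical cadherin such as E-cadherin.

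Values are log2 signals, in which a difference of 1 is a 2-fold difference, and a difference is always UM-Cis minus UMSCC1. The array medians lay between 4.74 and 4.82. Of the 52 genes, 30 lay above the array median on all 6 arrays and 18 lay below it on all 6. No detection call was used, so a signal below the median may be background, and precision is limited by the 3 arrays per line. The labels number the arrays of a line 1 and 2 and leave the third one without a number, and per-array values are given with this unnumbered array first, then 1 and 2. The unnumbered arrays stood apart from the others in both lines, along a second principal component that held 28.6% of the variance (the first, which separated the lines, held 51.5%). Among the junction genes the unnumbered array was the lowest of UMSCC1 in 33 of 52 and the highest of UM-Cis in 28 of 52. The same was not counted over all genes. Across the 52 genes, deviations of the unnumbered arrays from their group means correlated by 0.368 between the lines.

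The labelled cell type was checked against markers. Of 9 genes listed as squamous epithelial markers 4 were measured. *SFN* and *EPCAM*, which are not particular to squamous epithelium, lay above the array median on all arrays. *KRT5* lay above it on 4 of 6 arrays and *KRT14* on 5 of 6. The mean signal of the 4 was 7.62 to 7.94 in UM-Cis and 8.54 to 8.62 in UMSCC1. Within it *KRT5*, a keratin of basal squamous cells, was lower in UM-Cis (difference -1.94, limma adjusted p = 0.0091), and its partner keratin *KRT14* differed by -0.92 (adjusted p = 0.059, or 0.00797 when array labels were blocked). Of markers of other cells, 2 of 7 fibroblast genes were measured, with a mean of 2.43 to 2.73 in UM-Cis and 2.29 to 2.69 in UMSCC1, and both lay below the median on all arrays. The 3 of 6 endothelial genes had means of 4.73 to 5.06 in UM-Cis and 5.06 to 5.30 in UMSCC1, and *CLDN5* is one of them, as *EPCAM* is one of the tight junction partners described later. The 2 of 5 leukocyte genes, *CD14* and *LYZ*, had means of 3.85 to 3.99 in UM-Cis and 4.24 to 4.43 in UMSCC1, with *CD14* lower (difference -0.53, adjusted p = 0.049). The 3 of 4 melanocyte genes had means of 4.46 to 4.51 in UM-Cis and 4.46 to 4.68 in UMSCC1. Among these markers of other cells, *CLDN5* and the melanocyte gene *PMEL* lay above the array median on all arrays. The part of these markers in the differences below was not tested.

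Between the lines, 6 junction genes were lower in UM-Cis and none was higher. The lower genes were the protocadherins *PCDH18* and *PCDH7*, the desmosomal plaque genes *PKP2* and *PKP3*, the claudin gene *CLDN7* and the membrane protease gene *ST14*. The 6 made up 11.5% of the 52 genes, while 4.6% of all 14812 genes were lower and 5.91% were higher by the same test (limma, two-sided, Benjamini-Hochberg adjusted p under 0.05 over all genes). At an unadjusted p under 0.05, 10 junction genes were lower and 2 (*CLDN22* and *CLDN12*) were higher, while 12% of all genes were lower and 12.7% higher. An unpaired test of each gene alone, adjusted in the same way, called 3 junction genes lower and 0 higher, while 1.67% of all genes were lower and 2.17% higher. Most junction genes differed little, as did most genes on the array. The median difference of the 52 was -0.01, against -0.04 over all genes. Of the 52, 37 differed by less than 0.3 in either direction, as did 9573 of all 14812 genes.

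Other criteria gave other counts. Only *PCDH18* met a 2-fold difference together with an unadjusted p from limma under 0.05, by which 1.7% of all genes were lower and 2.44% higher. The arrays of the 2 lines did not overlap for 12 junction genes that were lower and 3 that were higher in UM-Cis, while 15.7% of all genes were lower and 14.7% higher without overlap. With the replicate label as a block, 7 junction genes were lower and 1 was higher, against 8.4% and 9.79% of all genes. The block added *PCDH9* as lower and *CLDN22* as higher to the same 6 genes.

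The size of every difference depends on the scaling of the arrays. The 6 measured control genes, of 15 listed, had a median difference of -0.30. Scaling the arrays to an equal median of these genes added 0.24 to each difference, so that the median of all genes became 0.20, and 1.12% of all genes were then lower and 5.31% higher. Each array was shifted by its own amount, so that the scatter within a line changed too. The difference of *CLDN22* moved from 0.62 to 0.85, while its limma adjusted p rose from 0.0566 to 0.111. All 6 lower genes kept their direction under this scaling, but none passed the test, with adjusted p of 0.0522 (*PCDH18*), 0.104 (*ST14*), 0.123 (*CLDN7*), 0.134 (*PKP2*), 0.147 (*PCDH7*) and 0.634 (*PKP3*). Of the 28 junction genes below 0 as deposited, 13 stayed below 0.

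**Figure D1:**
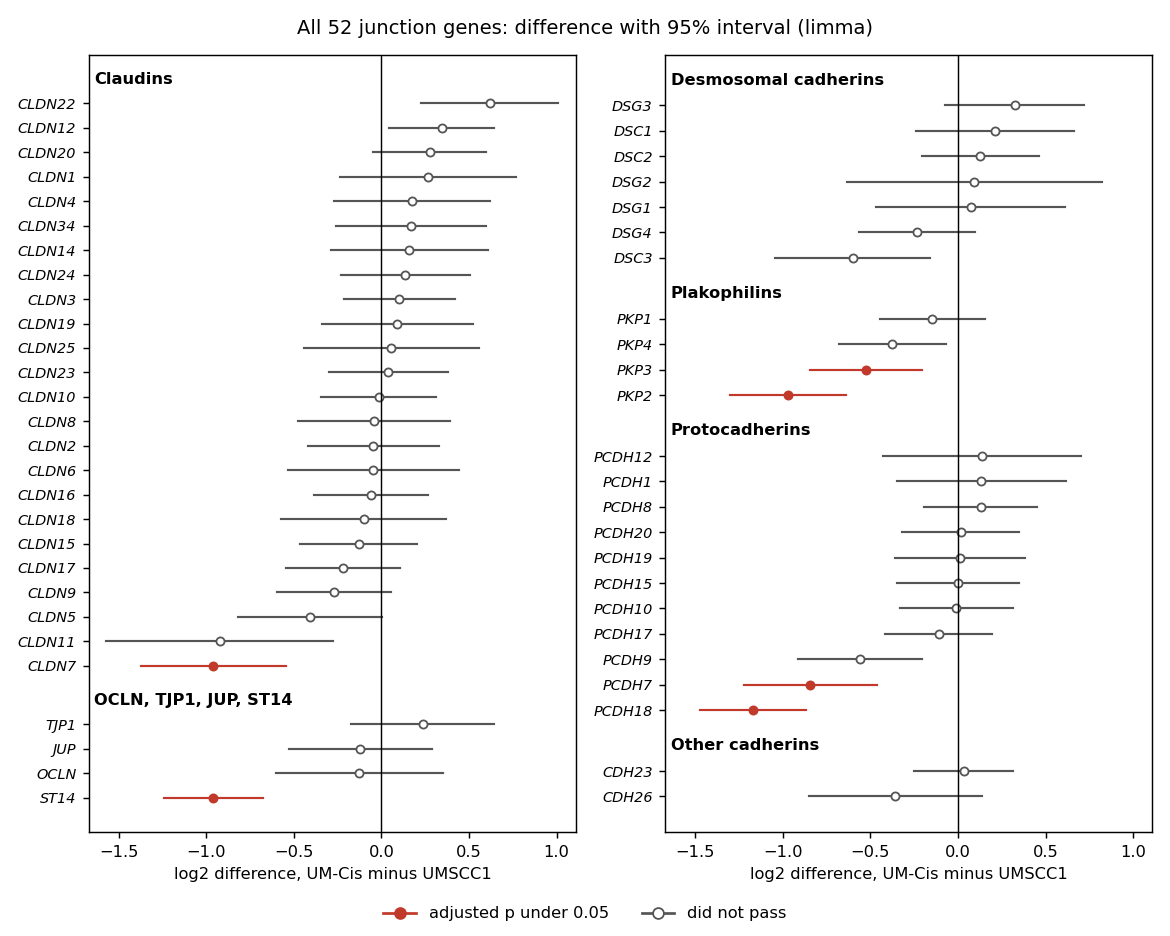
Log2 difference (UM-Cis minus UMSCC1, x axis) of each of the 52 junction genes, by family, with its 95% interval from limma (3 arrays per line). Filled red points mark the 6 genes with an adjusted p under 0.05, all of them below 0, and open points mark the 46 that did not pass. Scaling to control genes would move every point by 0.24 to the right and also change the intervals, with none then passing.

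The promoters of the junction genes, where available, were read for an E-box spelled CAGGTG or, on the other strand, CACCTG. The repressors SNAI1, SNAI2, ZEB1 and ZEB2 are known to bind it in E-cadherin and other epithelial genes. Sequences are the 250 bases before the gene start from RefSeq (GRCh38.p14), written 5′ to 3′ on the strand of the gene, with E-boxes in capitals. Of the 52 genes, 41 had an entry, with 60 gene starts. The lower genes *PKP2*, *PKP3* and *ST14* had no entry, so that their promoters were not read. *CLDN7*, *PCDH18* and *PCDH7* are shown because they were lower and have an entry, and *JUP* because it is a plaque gene with E-boxes whose signal did not pass. The *CLDN7* window, of the second of 2 starts, is chr17:7262479-7262728 (minus strand), that of *PCDH18* is chr4:137532495-137532744 (minus strand), that of *PCDH7* is chr4:30720119-30720368 (plus strand), and that of *JUP*, also a second start, is chr17:41785977-41786226 (minus strand).
CLDN7: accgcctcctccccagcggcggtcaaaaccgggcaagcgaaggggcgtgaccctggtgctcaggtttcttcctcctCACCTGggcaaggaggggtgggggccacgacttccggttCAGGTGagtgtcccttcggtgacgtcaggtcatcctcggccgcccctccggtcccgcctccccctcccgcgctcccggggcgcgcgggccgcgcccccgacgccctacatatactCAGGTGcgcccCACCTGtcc
PCDH18: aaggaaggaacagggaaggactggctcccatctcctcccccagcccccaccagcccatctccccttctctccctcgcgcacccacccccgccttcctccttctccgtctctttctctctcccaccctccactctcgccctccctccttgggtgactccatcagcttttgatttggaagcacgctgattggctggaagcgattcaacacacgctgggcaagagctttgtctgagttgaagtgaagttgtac
PCDH7: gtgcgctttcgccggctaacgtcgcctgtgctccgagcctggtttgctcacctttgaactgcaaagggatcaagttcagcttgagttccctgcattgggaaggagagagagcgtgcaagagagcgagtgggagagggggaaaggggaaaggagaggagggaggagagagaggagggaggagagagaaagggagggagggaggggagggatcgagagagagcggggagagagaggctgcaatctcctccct
JUP: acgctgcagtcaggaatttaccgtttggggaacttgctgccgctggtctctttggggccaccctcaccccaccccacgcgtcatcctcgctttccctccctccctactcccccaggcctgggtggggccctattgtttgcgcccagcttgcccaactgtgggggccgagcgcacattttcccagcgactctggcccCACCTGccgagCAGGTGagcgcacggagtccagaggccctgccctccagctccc

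The *CLDN7* window held 4 E-boxes, the first bases of which lie 174, 135, 20 and 9 bases before the gene start, while its other start held none. Of all 35116 windows of the table, 17.5% held at least 1 E-box and 0.122% held 4 or more, a limit equal to the count of *CLDN7* itself. Among the junction genes 14 of 60 windows (23.3%) held at least 1, among them windows of *OCLN*, *TJP1*, *DSC2* and *DSG2*, which did not pass. The windows of *PCDH18* and *PCDH7* held none, and that of *JUP*, at 54 and 43 bases before the start, held 2. A match is only a description of the letters, and neither binding nor use of these starts was measured here.

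Desmosomes are built from desmogleins and desmocollins, which span the membrane, and from plakoglobin and plakophilins in the plaque beneath it. Of the plakophilins, *PKP2* and *PKP3* were lower in UM-Cis. *PKP2* had 8.94, 8.92 and 8.92 on the UM-Cis arrays, against 9.65, 10.05 and 9.99 on the UMSCC1 arrays. All 3 UM-Cis arrays lay below all UMSCC1 arrays, and the UMSCC1 unnumbered array was the lowest of its line. The difference was -0.97 ± 0.14 (SE, n = 3 each), a 1.96-fold lower signal (limma adjusted p = 0.0053), and *PKP2* passed in all 6 fits that left out 1 array. *PKP2* encodes a plakophilin found in most tissues with desmosomes.

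*PKP3*, which encodes a plakophilin of stratified and simple epithelia, had 6.87, 6.62 and 6.71 in UM-Cis, against 7.10, 7.37 and 7.31 in UMSCC1. The groups were apart, with the unnumbered arrays nearest to each other. The difference of -0.52 ± 0.14 (SE, n = 3 each) passed narrowly (limma adjusted p = 0.0492). It passed in 2 of 6 fits without 1 array, those that left out an unnumbered array, and missed the threshold in the other 4 (adjusted p up to 0.18). *PKP4*, a relative of the plakophilins found mainly at adherens junctions, had 7.996, 7.98 and 8.26 in UM-Cis, against 8.40, 8.45 and 8.50 in UMSCC1. Its groups were apart as well, but the difference of -0.38 did not pass (adjusted p = 0.122). *PKP1*, the plakophilin of suprabasal squamous cells, lay below the array median on all arrays and differed by -0.15 (adjusted p = 0.555). All 4 plakophilins were thus below 0 as deposited, whereas *PKP1* turned to 0.09 when the arrays were scaled to control genes.

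The other plaque gene, *JUP*, encodes plakoglobin, a catenin shared by desmosomes and adherens junctions. *JUP* had 9.24, 8.94 and 9.08 in UM-Cis, against 8.86, 9.36 and 9.39 in UMSCC1. The UMSCC1 unnumbered array lay below all other arrays and both numbered UMSCC1 arrays lay above them, so that the groups overlapped. The difference was -0.12 (95% interval -0.53 to 0.29), with an adjusted p of 0.741.

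None of the 7 desmosomal cadherins passed the test (limma), and 1 of them, *DSC3*, was lower at an unadjusted p under 0.05. *DSC3*, the desmocollin of basal squamous cells, had 7.84, 7.55 and 7.57 in UM-Cis, against 7.86, 8.42 and 8.49 in UMSCC1. The unnumbered arrays were nearly equal in the 2 lines, while the numbered arrays were well apart. Over all arrays the difference was -0.60 (adjusted p = 0.093). Without the UMSCC1 unnumbered array it was -0.80 and passed (adjusted p = 0.0174), and it passed on the numbered arrays alone (-0.89, adjusted p = 0.00431). Of the 6 fits without 1 array it passed in only 1, with a limma adjusted p of up to 0.27 in the others. *DSG3*, the desmoglein of basal squamous cells, had 6.77, 6.46 and 6.23 in UM-Cis, against 5.98, 6.31 and 6.20 in UMSCC1. These groups overlapped, and the difference was 0.32 (adjusted p = 0.302).

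*DSG2* and *DSC2* encode the desmosomal cadherins that are also found in simple epithelia. *DSG2* had 9.31, 10.00 and 10.03 in UM-Cis, against 8.98, 10.06 and 10.01 in UMSCC1. Here the unnumbered array was the low one in both lines, and the numbered arrays differed by less than 0.1. *DSC2* had 8.38, 8.31 and 8.15 in UM-Cis, against 7.95, 8.31 and 8.20 in UMSCC1, and these groups overlapped. Their differences of 0.09 (*DSG2*, 95% interval -0.63 to 0.82) and 0.13 (*DSC2*, 95% interval -0.21 to 0.46) did not pass. *DSG1*, *DSC1* and *DSG4*, genes of upper epidermal layers or hair, lay below the array median on all arrays and differed by 0.07, 0.21 and -0.23. The 7 desmosomal cadherin genes follow one another in a single run of 7 on their chromosome in the RefSeq gene table. Along it *DSC3*, *DSC2*, *DSC1*, *DSG1*, *DSG4*, *DSG3* and *DSG2* had differences of -0.60, 0.13, 0.21, 0.07, -0.23, 0.32 and 0.09, with no call at any of them.

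Among claudins, *CLDN7*, which encodes a tight junction claudin that also lies along the lateral membrane of epithelial cells, was the only one of 24 to pass. *CLDN7* had 9.70, 9.39 and 9.19 in UM-Cis, against 10.13, 10.54 and 10.49 in UMSCC1. The groups were apart, and the unnumbered arrays were again the nearest pair. The difference was -0.96 ± 0.18 (SE, n = 3 each), a 1.94-fold lower signal (limma adjusted p = 0.0131). *CLDN7* passed in 2 of 6 fits without 1 array, those that left out an unnumbered array, and its adjusted p reached 0.063 in the others. *ELP5*, a gene that overlaps *CLDN7* in the annotation, differed by -0.28 (adjusted p = 0.422) with overlapping groups.

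*CLDN11* had the next largest deficit. The gene, known for the tight junctions of myelin and of Sertoli cells, had 5.95, 4.85 and 5.64 in UM-Cis, against 6.54, 6.60 and 6.08 in UMSCC1. The groups did not overlap, but UM-Cis array 1 lay well below the other arrays of its line. The difference of -0.92 did not pass (adjusted p = 0.078), and without UM-Cis array 1 it was -0.61 (limma adjusted p = 0.171). Without the UM-Cis unnumbered array it was -1.16 and passed (adjusted p = 0.0366). This was the only pass in the 6 fits without 1 array, and the adjusted p reached 0.231 in the others. *CLDN5*, the claudin of endothelium, had 5.51, 6.10 and 6.07 in UM-Cis, against 6.27, 6.38 and 6.26 in UMSCC1, and did not pass (difference -0.41, adjusted p = 0.204).

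*CLDN22* had the largest positive difference of the 52 genes. It had 4.01, 4.003 and 4.24 in UM-Cis, against 3.16, 3.52 and 3.71 in UMSCC1. The groups were apart, yet all 6 values lay below the array medians. The difference was 0.62 ± 0.17 (SE, n = 3 each), with an adjusted p of 0.0566, or 0.021 with array labels as a block. *WWC2*, a gene whose annotated span overlaps *CLDN22*, differed by 0.69 (adjusted p = 0.116, and 0.0115 with the block). *CLDN12*, a broadly expressed claudin, had 6.16, 6.02 and 6.31 in UM-Cis, against 5.80, 5.78 and 5.89 in UMSCC1. These groups were apart too, with a difference of 0.34 that did not pass (adjusted p = 0.149).

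The claudins *CLDN1*, *CLDN4* and *CLDN3* differed less than *CLDN7*. *CLDN1*, required for the epidermal barrier, had 9.96, 9.90 and 9.96 in UM-Cis, against 9.15, 9.99 and 9.88 in UMSCC1. Apart from a single low UMSCC1 array, the one with no number, the lines had nearly the same signal (difference 0.27, adjusted p = 0.512). *CLDN4*, a sealing claudin, had 5.66, 5.68 and 5.57 in UM-Cis, against 5.06, 5.81 and 5.52 in UMSCC1 (difference 0.17, adjusted p = 0.646). Its neighbour in the genome, *CLDN3*, differed by 0.10 (adjusted p = 0.717). The other 16 claudins, none of which passed, differed by -0.27 (*CLDN9*) to 0.28 (*CLDN20*). The 24 claudins split evenly, 12 below 0 and 12 above, with a median difference of 0.01. When scaled to control genes, 4 were below 0 and 20 above.

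*OCLN* encodes occludin, a membrane protein of tight junctions, and *TJP1* encodes ZO-1, the scaffold that ties claudins and occludin to actin. *OCLN* had 8.63, 8.44 and 8.30 in UM-Cis, against 8.13, 8.76 and 8.86 in UMSCC1. The UMSCC1 unnumbered array was the lowest of all 6, the other UMSCC1 arrays were the highest, and the difference was -0.13 (95% interval -0.60 to 0.35, adjusted p = 0.77). *TJP1* had 9.82, 9.54 and 9.81 in UM-Cis, against 9.16, 9.57 and 9.74 in UMSCC1. Its groups overlapped, and the difference was 0.23 (95% interval -0.17 to 0.64, adjusted p = 0.476).

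*ST14* encodes matriptase, a membrane-anchored serine protease of epithelial cells that is needed for the barrier of the epidermis. *ST14* had 7.70, 7.56 and 7.53 in UM-Cis, against 8.51, 8.54 and 8.61 in UMSCC1. The groups were far apart relative to their spread (SD 0.088 in UM-Cis and 0.051 in UMSCC1). The difference was -0.96 ± 0.12 (SE, n = 3 each), a 1.95-fold lower signal (limma adjusted p = 0.0026), and *ST14* passed in all 6 fits without 1 array. Its known inhibitors and its substrate protease (*SPINT1*, *SPINT2* and *PRSS8*) were not analysed here.

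**Figure D2:**
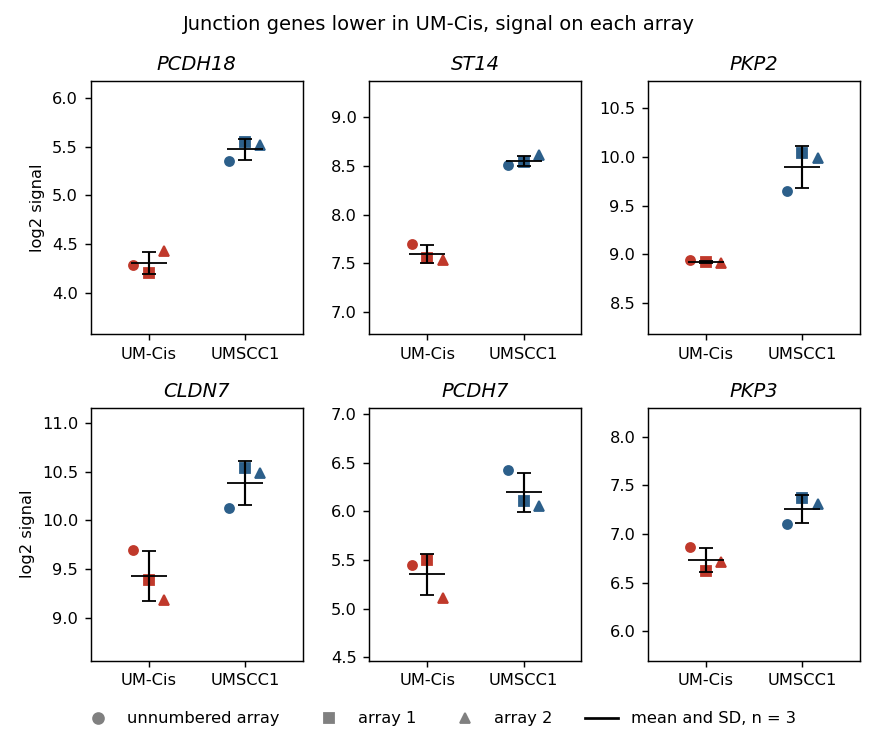
Log2 signal (y axis, each panel spanning the same range of log2 units) on each array for the 6 junction genes with an adjusted p under 0.05, UM-Cis in red and UMSCC1 in blue. Symbols mark the array label, and black lines give the mean and SD of 3 arrays. In each panel all 3 UM-Cis arrays lie below all 3 UMSCC1 arrays, most closely for *PKP3* (6.87 in UM-Cis and 7.10 in UMSCC1 on the unnumbered arrays).

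Protocadherins are cadherin relatives that act in cell recognition and signalling and are best known from the nervous system. Of the 11 measured, *PCDH18* and *PCDH7* were lower in UM-Cis and none was higher at an unadjusted p under 0.05, by the unpaired test or with the block. *PCDH18* had 4.28, 4.20 and 4.43 in UM-Cis, against 5.35, 5.55 and 5.52 in UMSCC1. The UM-Cis values lay below the array medians and the UMSCC1 values above them. The difference of -1.17 ± 0.13 (SE, n = 3 each) was a 2.25-fold lower signal and the largest of the 52 (limma adjusted p = 0.0016). *PCDH18* passed in all 6 fits without 1 array, with differences of -1.23 to -1.12.

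*PCDH7* encodes a protocadherin that has been studied in several carcinomas. *PCDH7* had 5.45, 5.50 and 5.11 in UM-Cis, against 6.43, 6.10 and 6.05 in UMSCC1. The groups did not overlap, and the difference was -0.84 ± 0.17 (SE, n = 3 each), a 1.79-fold lower signal (limma adjusted p = 0.0159). It passed in 4 of 6 fits without 1 array, and missed the threshold without UM-Cis array 2 or UMSCC1 array 1 (adjusted p up to 0.0623).

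*PCDH9* had 3.79, 3.98 and 4.13 in UM-Cis, against 4.41, 4.73 and 4.43 in UMSCC1, all below the array medians. The groups were apart, and the difference of -0.56 had an adjusted p of 0.0556, or 0.0327 with array labels as a block. A second, dimmer probe set of *PCDH9* averaged 2.36 in UM-Cis and 1.90 in UMSCC1, a difference of 0.46 in the opposite direction. *PCDH17* was the other gene with 2 probe sets, and they differed by -0.11 (the brighter) and 0.16. The other 8 protocadherins differed by -0.11 (*PCDH17*) to 0.14 (*PCDH12*).

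Both measured numbered cadherins had overlapping groups. *CDH26*, a cadherin of epithelia, had 4.78, 4.22 and 4.93 in UM-Cis, against 4.77, 5.26 and 4.97 in UMSCC1, with UM-Cis array 1 the low one (difference -0.36, adjusted p = 0.36). *CDH23*, a cadherin of the tip links between the stereocilia of hair cells, had 4.84, 4.78 and 4.77 in UM-Cis, against 4.68, 4.86 and 4.75 in UMSCC1. Its difference of 0.03 (adjusted p = 0.911) changed sign in several alternatives and has no direction.

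Genes that work with the junction proteins were taken as 6 lists, with 75 genes of which 45 were measured. Of these, 3 were higher, 3 were lower and 39 did not pass. Each direction made up 6.67% of the 45, near the shares over all genes (5.91% higher and 4.6% lower), and the median difference was -0.07 against -0.04 over all genes. Of the 6 genes that passed, 5 were atypical cadherins, nectins or the nectin relative *PVR*. *FAT2*, an atypical cadherin of squamous epithelium, had 4.38, 4.19 and 4.61 in UM-Cis, against 5.92, 6.08 and 5.93 in UMSCC1 (difference -1.58 ± 0.15 SE, n = 3 each, limma adjusted p = 0.00085). Its relative *FAT4*, a cadherin of planar cell polarity and Hippo signalling, went the other way, with 7.04, 6.64 and 6.86 in UM-Cis, against 5.49, 5.42 and 5.63 in UMSCC1 (difference 1.33 ± 0.15 SE, n = 3 each, limma adjusted p = 0.0016). Neither gene's groups overlapped, and both passed in all 6 fits without 1 array and when scaled to control genes. The UM-Cis values of *FAT2* lay below the array medians, where a signal may be background. The other 11 of 13 atypical cadherins did not pass.

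Nectins are immunoglobulin-like proteins that bind each other across adherens junctions. *NECTIN3* was higher, with 7.27, 7.14 and 6.93 in UM-Cis, against 6.00, 5.93 and 6.24 in UMSCC1 (difference 1.06 ± 0.15 SE, n = 3 each, limma adjusted p = 0.0043). *NECTIN1* was lower, with 4.36, 4.66 and 4.47 in UM-Cis, against 5.68, 5.45 and 5.25 in UMSCC1 (difference -0.97 ± 0.16 SE, n = 3 each, limma adjusted p = 0.0071). These nectins, which bind each other, thus differed in opposite directions, each without overlap. When scaled to control genes both kept their direction, and *NECTIN1* no longer passed (adjusted p = 0.107). The UM-Cis values of *NECTIN1* also lay below the array medians. *PVR*, a nectin relative, had 8.50, 8.67 and 8.94 in UM-Cis, against 7.87, 8.03 and 8.10 in UMSCC1 (difference 0.70, adjusted p = 0.025, passing in 1 of 6 fits without 1 array, and adjusted p = 0.0718 when scaled to control genes). The other 5 of 8 measured adherens junction partners did not pass.

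Among 16 measured tight junction partners only *TJP3*, which encodes the scaffold ZO-3, passed. It had 5.08, 5.23 and 5.08 in UM-Cis, against 5.71, 5.48 and 5.72 in UMSCC1. The groups were apart, but the call (difference -0.51, limma adjusted p = 0.0469) was lost in each of the 6 fits without 1 array and when scaled to control genes (adjusted p = 0.647). The remaining 15 did not pass. None of 5 plakins and none of 3 pannexins passed (limma), with the plakin *PLEC* higher at an unadjusted p under 0.05 (difference 0.40, adjusted p = 0.19) and no pannexin in either direction. *DSP*, which encodes the plakin that ties desmosomes to keratin, had 7.33, 8.71 and 8.70 in UM-Cis, against 7.44, 9.13 and 9.30 in UMSCC1. Like *DSG2*, it was low on the unnumbered array in both lines, and its difference of -0.38 had a 95% interval of -1.61 to 0.85. *DST*, another plakin, behaved alike, and its difference of -0.46 had an adjusted p of 0.629, or 0.0357 with array labels as a block.

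**Figure D3:**
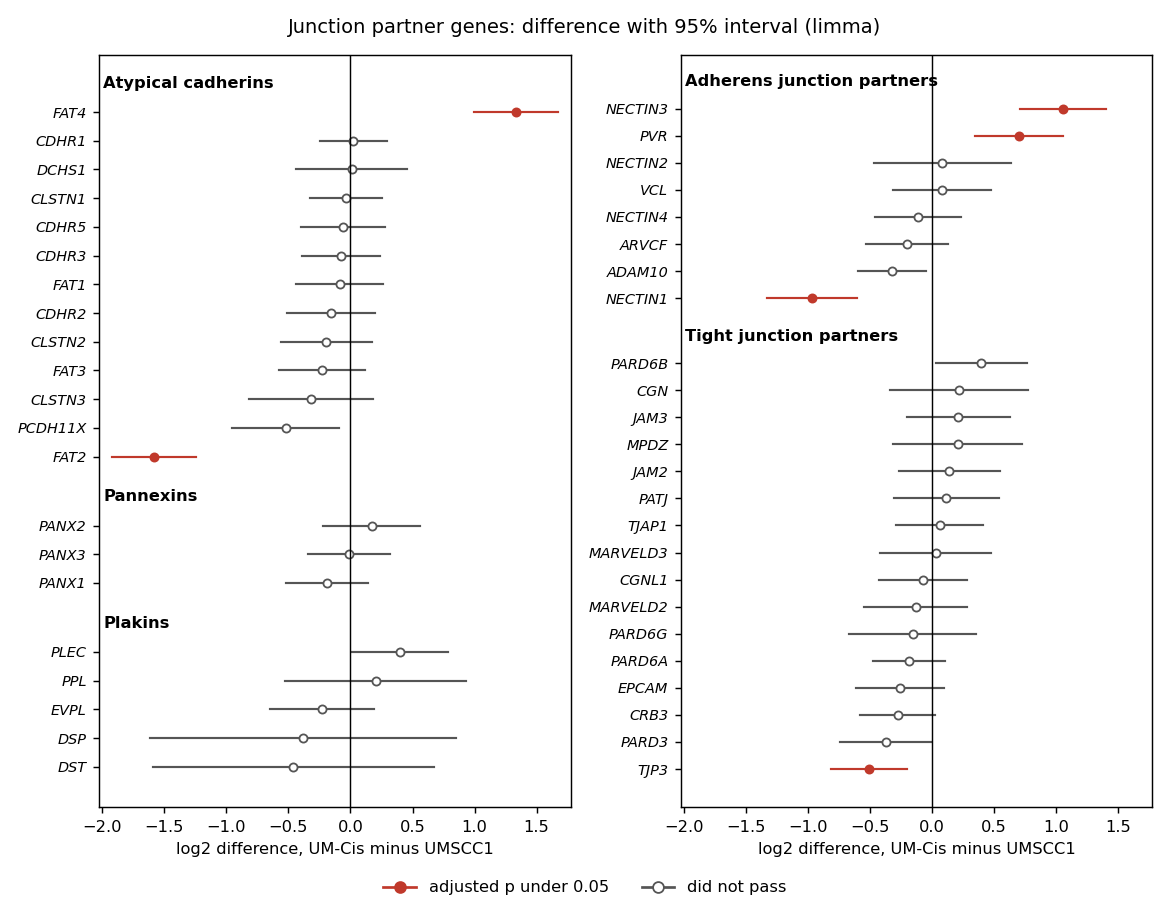
Log2 difference (UM-Cis minus UMSCC1, x axis) of the 45 measured partner genes by list, with 95% intervals from limma (3 arrays per line). Filled red points mark the 3 higher genes (*FAT4*, *NECTIN3* and *PVR*) and the 3 lower genes (*FAT2*, *NECTIN1* and *TJP3*), and the wide intervals of *DSP* and *DST* come with low unnumbered arrays in both lines.

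The 6 lower junction genes differed in how firmly they stood under other processing. *PCDH18*, *ST14* and *PKP2* passed in all 6 fits without 1 array, with the block and with the unpaired test, whereas *CLDN7*, *PCDH7* and *PKP3* were lost with the unpaired test and without certain arrays. All 6 were lost when the arrays were scaled to control genes.

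**Figure D4:**
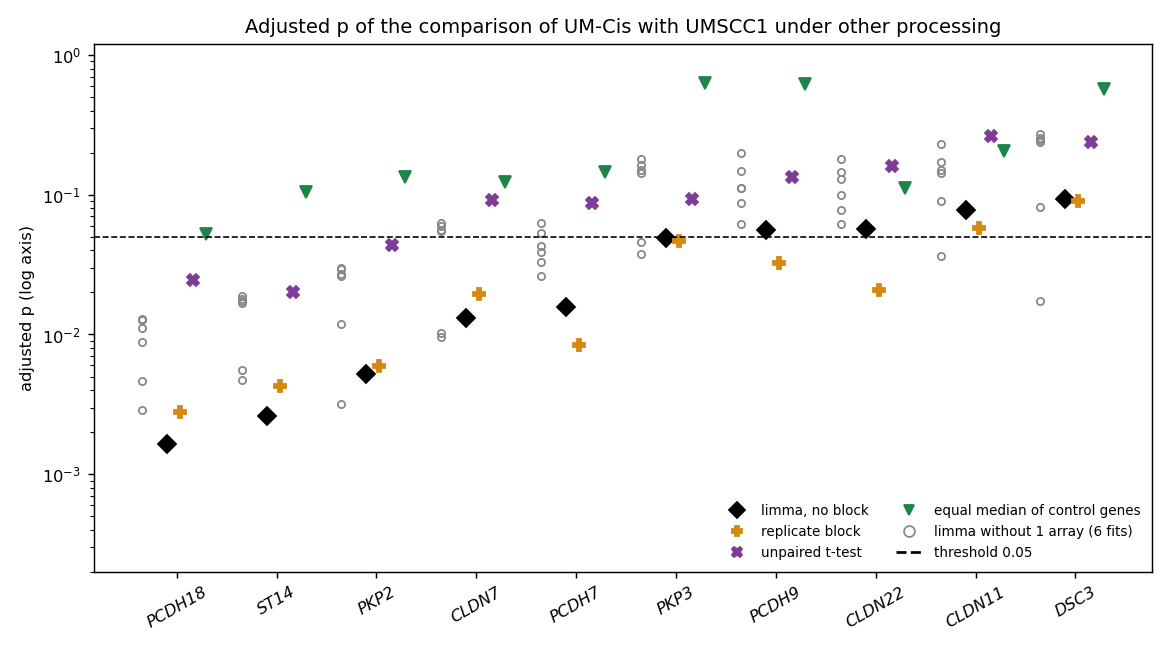
Adjusted p (y axis, log scale) of the 6 lower junction genes and of *PCDH9*, *CLDN22*, *CLDN11* and *DSC3*, which did not pass, under limma without a block, with the replicate block, with the unpaired test, with scaling to control genes, and in the 6 limma fits without 1 array. *PCDH18*, *ST14* and *PKP2* stay under the dashed line at 0.05 in all but the scaling to control genes, where *PCDH18* lies just above it (0.0522).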

How the data were processed

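RNA of 6 samples was measured on Affymetrix Human Gene 2.0 ST arrays from 200 ng of total RNA. The authors deposited log2 signals per probe set, already normalized between arrays (by quantile normalization according to the text, with RMA listed in the submitters' notes). Version, genome build and filters were not given in sources used here. Platform annotation gave 15835 of 44629 probe sets 1 symbol, 0 several and 28794 none here, and all 15835 gene identifiers were found in the RefSeq gene table.

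All 14812 genes, on their brightest probe set, were fitted in R 4.3.3 using lmFit and eBayes of limma 3.58.1 (two-sided, Benjamini-Hochberg, threshold 0.05), with no filter on dim probe sets. Overlap of groups compared the 3 arrays of each line. The fitting step was tested on simulated data in which arrays scattered independently. The simulation held no shift of the unnumbered arrays, so it cannot show how the fit behaves under one. Figures were drawn with matplotlib 3.10.9.

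The genes and lists were chosen with earlier results of these data known. Named genes are those with an adjusted p under 0.05 or a log2 difference of at least 1, *OCLN*, *JUP*, *TJP1* and *ST14*, the 2 smallest p-values of each family, and partner genes with an adjusted p under 0.05. Others were named after their values were seen. The 6 partner lists were adherens junction partners (8 of 16 measured), plakins (5 of 7), tight junction partners (16 of 25), matriptase partners (0 of 3), pannexins with other connexins (3 of 7) and atypical cadherins (13 of 17). Y-linked genes were left out.

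Deviations of same-labelled arrays from their group means correlated across the lines by 0.505 (unnumbered), 0.237 (array 1) and 0.357 (array 2), and on this ground, from the data alone, equal labels were treated as pairs. Arrays 1 and 2 of different labels correlated by 0.265 and 0.233, and the pairing comes largely from the unnumbered arrays. Over the junction genes alone, same-labelled arrays correlated by 0.368 (unnumbered), 0.149 (array 1) and 0.231 (array 2). A shared day or batch is stated nowhere. Alternatives were the methods' unpaired test, a trended and robust prior, array weights, quantile renormalization, equal medians of control genes, a dim filter, the mean of probe sets, all probe sets, the replicate block, leaving out each array, and a criterion of 2-fold with an unadjusted p under 0.05, the thresholds the study used, here with the p of limma.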

Additional observations from a re-analysis of the deposited data

How the results depend on the processing

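The count of 6 junction genes lower in UM-Cis stayed at 6 with a trended and robust prior, quantile renormalization and the mean of probe sets. With these, 4.88%, 4.69% and 4.46% of all genes were lower. It was also 6 after a filter on dim probe sets, which left 33 junction genes among 10488 genes, with 7.21% of these lower. It was 7 with the replicate block, 9 with array weights, 8 on the numbered arrays alone (a setting chosen after seeing the data) and 5 with all 44629 probe sets. Over all features the lower calls moved too, to 1244, 1508, 1301 and 415 in these settings, against 681. It was 3 with the methods' unpaired test (248 over all genes), 1 with the 2-fold criterion (252), 0 with equal medians of control genes (166), and 3 to 7 without 1 array (324 to 738). It fell to 3 without UM-Cis array 2 and without UMSCC1 array 1. The count of higher genes was 0, and 1 with array weights and with the replicate block, *CLDN22* both times. With array weights 10.8% and with the block 9.79% of all genes were higher. In the other settings 1.25% (all probe sets) to 9.36% (numbered arrays alone) of all features were higher. The block changed no other call among the genes named than those of *CLDN22*, *PCDH9*, *KRT14*, *WWC2* and *DST*. The difference of *CDH23* turned to -0.0214 with array weights and to -0.0319 on the numbered arrays alone, and ran from -0.0119 to 0.0814 without 1 array. With equal medians of control genes *JUP* turned to 0.12 and *OCLN* to 0.11, and without 1 array *OCLN* ran from -0.35 to 0.0103. The causes were not tested. The control genes add a uniform shift of 0.24, and scaling by them also changes the scatter within each line. Signals below the array median may be background, which limits *PCDH9*, *CLDN22* and, in UM-Cis, *PCDH18*, *FAT2* and *NECTIN1*.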
